A study of Mus musculus with 15 samples.

Results

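Untreated macrophages that lacked Junb were compared with untreated wild type macrophages, gene by gene, on 4 arrays of each genotype. These 8 arrays are the untreated ones among the 15 of the series, chosen by their sample titles, and 13689 autosomal genes of 14192 genes tested are described. The 503 genes of chromosomes X and Y were left out because the genotypes also differed in sex-linked transcripts. The cells were macrophages grown for a week from mouse bone marrow in macrophage colony-stimulating factor, mock-treated and harvested at 4 h. All mice had a C57BL/6 background according to the labels. The knockout cells were Junb-fl/fl Lyz2-Cre+/+, that is, both Junb copies were floxed and both copies of the lysozyme gene Lyz2 carried Cre recombinase, which removes floxed sequence in myeloid cells. The control cells were labelled wild type C57BL/6, with neither allele named. The replicates were separate wells, and nothing in the labels ties them to separate mice, so p-values measure the spread between wells only.

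JunB is a subunit of AP-1, a dimeric transcription factor formed by members of the Jun, Fos, ATF and BATF families that binds the palindromic DNA sequence TGANTCA. In macrophages AP-1 takes part in the response to bacterial products, in growth factor signalling and in the formation of osteoclasts. Macrophages grown in this way are resting but already transcribe a low level of interferon-dependent genes, and they divide as long as the growth factor is present.

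Levels are given as log2 of the processed signal over the 75th percentile of the same array, so a level of 0 is a moderately bright gene, and values below -4.52 were raised to that common floor. A difference is the knockout mean minus the wild type mean of these log2 levels, followed by its standard error (SE). A gene is called when limma's adjusted p, by Benjamini-Hochberg over all genes tested, is under 0.05. Values listed in a sentence follow replicates 1 to 4.

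The labels were checked first. Junb stood at 0.91, 0.70, 0.43 and 0.89 on the wild type arrays and at the floor on all knockout arrays, where its processed signal was between -0.395 and 4.15. It was at least 75.1-fold lower in the knockout (limma adjusted p = 9.8e-12), a bound that sets the mean of the bright group against the lowest signal measurable on the dim arrays. Where the probe lies relative to the deleted part is not given in the sources used here. Lyz2 was 8.24 ± 0.17 log2 units lower (adjusted p = 2.8e-13), with a wild type signal near the bright end of the arrays. Its close paralog Lyz1 was lower by 3.34 ± 0.12, a value that cross-hybridisation between these near copies could affect. The Y-linked Ddx3y and Eif2s3y were at least 411-fold and 1238-fold higher and the X-linked Xist at least 21.9-fold lower in the knockout. Not all Y-linked genes were alike: Uty was higher by 3.05 ± 0.40 yet above background on 3 wild type arrays, and Kdm5d was above it on all arrays and was not called (-0.94, limma adjusted p = 0.42). Junb loss, Cre, Lyz2 loss, these sex-linked transcripts and slide all coincide with genotype, since the knockout arrays lay on slide 1 and the wild type arrays on slide 2, and cannot be told apart in any result below.

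The cells carried the transcripts of macrophages in both genotypes. Of 19 macrophage markers measured, 18 were well above background on all 8 arrays. Markers of other blood cells were partly measurable, with 8 of 14 neutrophil, 3 of 11 T and NK cell, 2 of 10 red cell and platelet and 2 of 7 B cell markers well above background on all 8 arrays. Among the rest, the B cell genes Pax5 and Blk, the T and NK cell genes Cd3d, Cd3g, Cd8a, Ncr1 and Gzmb, the neutrophil genes Mpo, Ngp and Cxcr2 and the red cell gene Alas2 were well above background on none. The 75th percentile of the signal was between 613 and 1490, and 51.0% to 63.2% of the spots were well above background. Arrays of a group correlated across genes at 0.960 to 0.997. A pair of arrays stood apart. On knockout replicate 3, 431 of 32507 probes lay more than 3 log2 units below the other 3 arrays, and on wild type replicate 1, 449 lay as far above. Csf1r, the receptor for macrophage colony-stimulating factor, shows the effect. Its knockout levels were 9.12, 8.00, 1.56 and 8.74 against 8.24 to 8.63 in wild type, so replicate 3 alone was low and the difference was not called.

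Of the 13689 genes, 2415 were called (17.6%), 1607 of them higher (11.7%) and 808 lower (5.9%) in the knockout. At least 2-fold differences were fewer, with 388 genes higher (2.83%) and 202 lower (1.48%). The arrays of the genotypes did not overlap for 2858 genes (20.9%). The median over all autosomal genes was 0.04. Without both arrays that stood apart 1815 genes were called, and the authors' deposited value table gave 1146 calls.

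Many calls of the genes named below were lost in one of the other settings, always with the direction kept. In the deposited table these were the chemokine genes Ccl2, Cxcl3 and Cxcl9, the cytokine and signalling genes Csf1, Il1b, Socs1 and Socs3, the presentation genes H2-DMa, H2-Ob and Tap1, and the activation genes Clec10a, Egr2, Flt1 and Fn1. Batf2, Bmp2, Ccnd1, Ccr3, Itgax, Lrp1, Mmp8, Pdgfrb, Slc28a2b, Tfrc and Tubb2b did not pass there either. With normexp correction Batf2, C5ar1, Ccr9, H2-Ob, Ifnb1, Klf2, Pdgfrb, Ppargc1b and Socs3 did not pass.

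**Figure D1:**
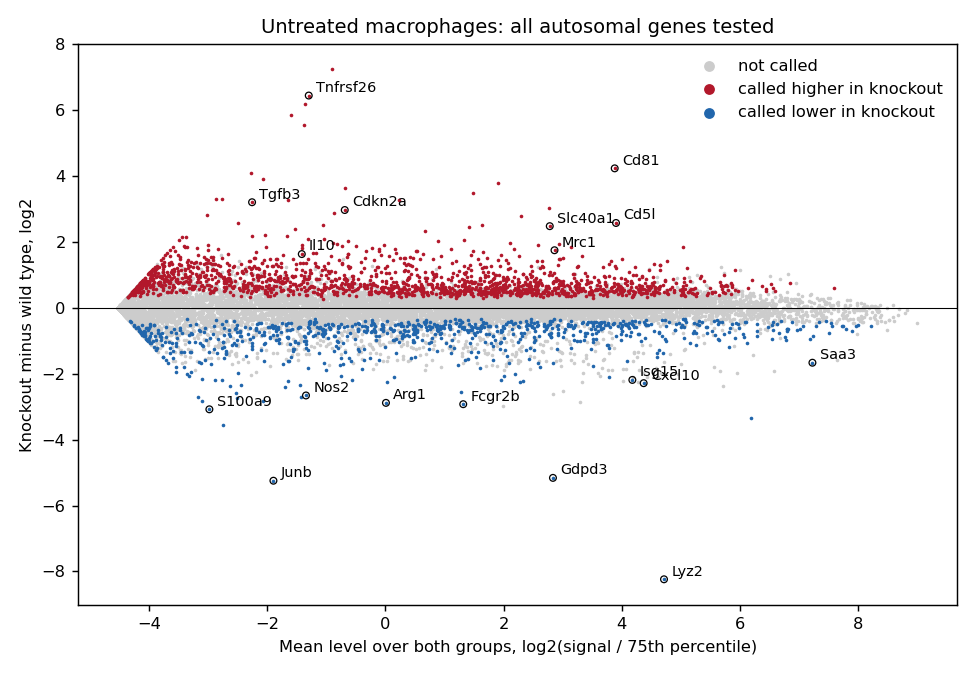
Each point is an autosomal gene. The horizontal axis is its mean level over the 8 untreated arrays (log2 of signal over the array's 75th percentile) and the vertical axis is the log2 difference between knockout and wild type. Red genes were called higher, blue lower and grey not called. Among the labelled genes Tnfrsf26 lies highest and Lyz2 lowest.

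The gene lists differed in direction. Interferon-stimulated genes, chemokines and MHC genes were called mostly lower, and genes of DNA replication and mitosis only higher, against shares of 11.7% higher and 5.9% lower over all genes. The counts of each list below are to be read beside these shares. Reference genes had 0 of 13 called, but 2 higher and 1 lower under quantile scaling and 1 higher and 4 lower with array quality weights.

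**Figure D2:**
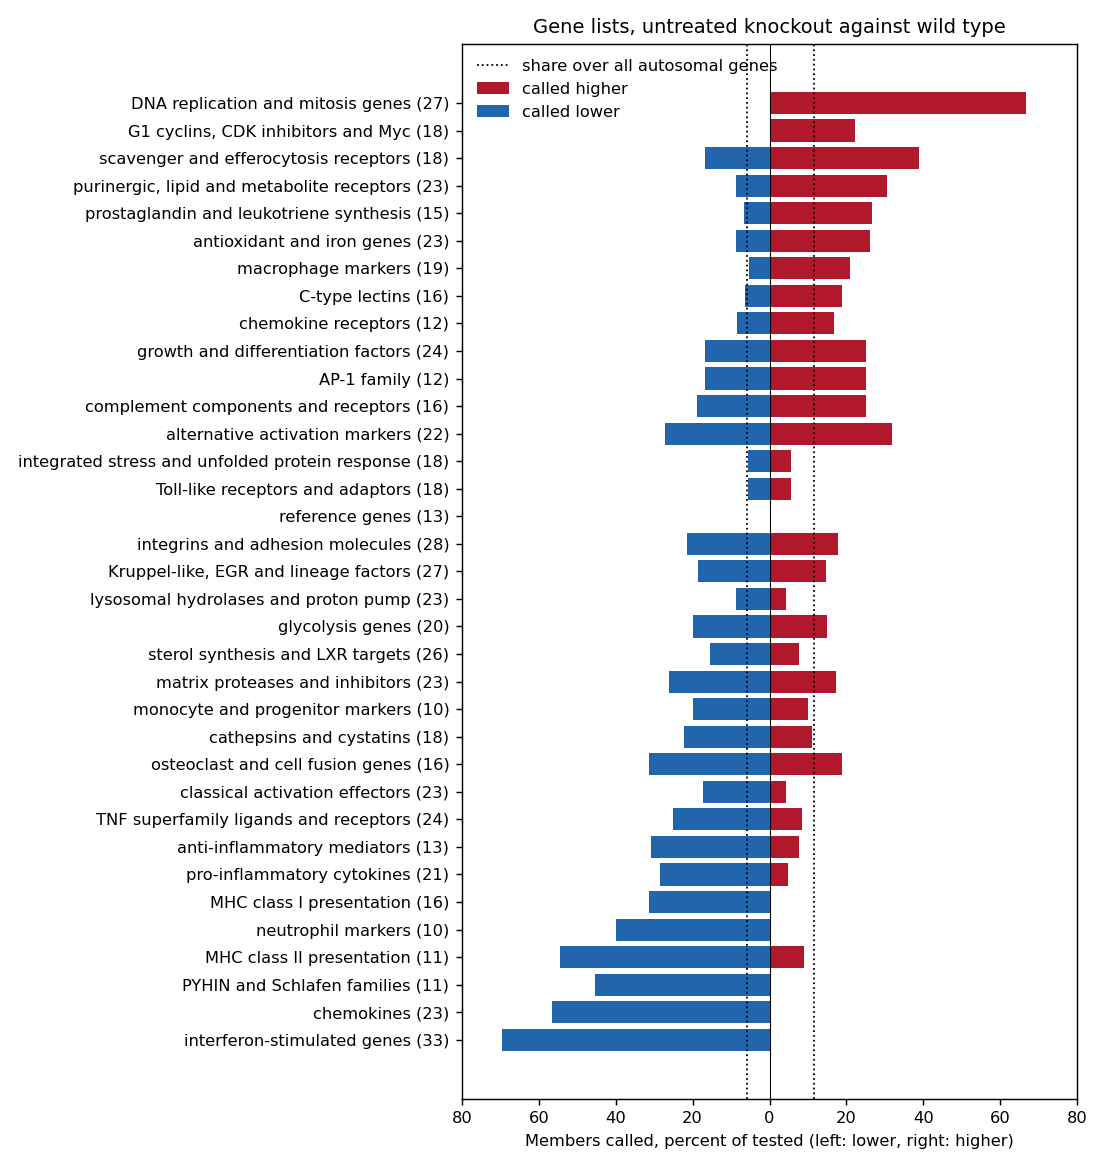
Percent of the tested members of each gene list that were called lower (blue, to the left) or higher (red, to the right) in untreated knockout cells. The number of members tested stands in parentheses, dotted lines mark the shares over all autosomal genes (5.9% lower, 11.7% higher), and lists with at least 10 members tested are shown. Interferon-stimulated genes lie at the bottom with 23 of 33 lower, and DNA replication and mitosis genes at the top with 18 of 27 higher.

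Among the AP-1 subunits other than JunB, Batf, Batf3 and Fos were higher in the knockout and Batf2 was lower. Of the 12 members, 3 were called higher and 2, including Junb, lower. Batf, whose protein dimerises with Jun proteins, stood at 0.01, 0.14, -0.31 and 0.17 in the knockout and at -1.37, -1.28, -1.40 and -1.05 in wild type. All knockout arrays were higher than all wild type arrays, and Batf rose by 1.27 ± 0.15 (adjusted p = 4.3e-05). Batf3, needed for cross-presenting dendritic cells, rose by 1.17 ± 0.22 (adjusted p = 0.0019). Fos, the founding Fos subunit, rose by 0.56 ± 0.13 (adjusted p = 0.0077). Batf2, an interferon-inducible member, fell by 0.98 ± 0.21 (adjusted p = 0.0044). The Jun subunits other than JunB did not pass, with Jun at 0.36 ± 0.17 and Jund at 0.56 ± 0.20. Jund passed under quantile scaling (0.60), with array quality weights (0.49) and without wild type replicate 4 (0.73), and Jun passed with array quality weights (0.40). Fosb (-0.06), Fosl1 (0.42) and Fosl2 (-0.21, another probe -1.44), of the Fos family, and the stress factor Atf3 (-0.33) did not pass either, although Atf3 did with array quality weights and with the replicate block, and the sign of Fosb and Fosl2 turned with normexp correction. The repressor Jdp2 was at -0.43 and did not pass, but it did under quantile scaling (-0.53), with array quality weights (-0.36) and without wild type replicate 1 (-0.54).

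The widest difference was in genes that type I interferon induces. Of 33 such genes tested, 23 were called lower and 0 higher, and 14 were at least 2-fold lower. The median difference of the list was -0.85, against 0.04 for all autosomal genes. The arrays of the genotypes did not overlap for 22 of the 33 members, and for 20.9% of all autosomal genes. Isg15, a ubiquitin-like modifier, stood at 2.93, 3.24, 2.72 and 3.44 in the knockout and at 5.01, 5.46, 5.15 and 5.47 in wild type. The groups were separated by more than their own spread, and Isg15 fell by 2.19 ± 0.17 (adjusted p = 1.5e-06, another probe -1.59). Usp18, the protease that removes Isg15 from proteins, fell by 2.08 ± 0.21 (adjusted p = 1.1e-05). Rsad2, which encodes the antiviral enzyme viperin, had levels of 2.47, 2.75, 2.44 and 2.87 against 3.83, 4.54, 4.03 and 5.22. It fell by 1.77 ± 0.27 (adjusted p = 0.0004). Irf7, a transcription factor that amplifies interferon production, fell by 1.68 ± 0.21 (adjusted p = 1.0e-04). Oas3, which senses double-stranded RNA, fell by 1.61 ± 0.20 (adjusted p = 8.2e-05) and was picked for its promoter after its values were seen. The guanylate-binding protein gene Gbp2 was not called, and knockout replicate 3 stood at -3.57 against 2.99 to 3.46 on the other 3; without that array it was at -0.93 (adjusted p = 0.0038). Stat2, a subunit of the interferon-activated transcription factor, was at -0.35 ± 0.14 and did not pass, though it did under quantile scaling (-0.45), with array quality weights (-0.36) and without wild type replicate 1 (-0.47). The list kept 0 members higher under quantile scaling (28 lower), normexp background correction (25 lower) and the deposited value table (16 lower of 23).

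**Figure D3:**
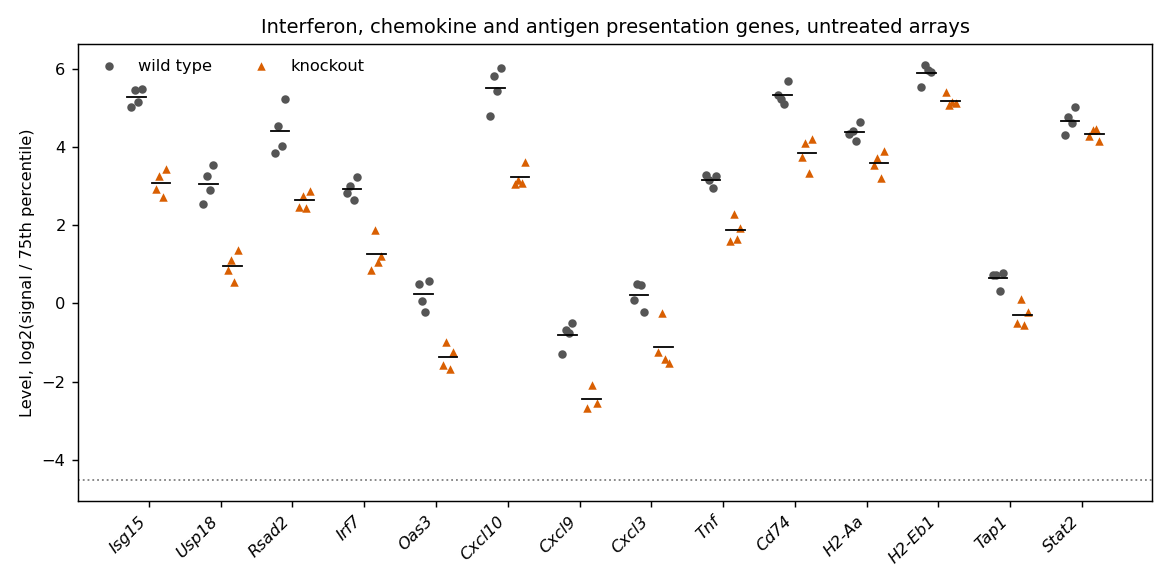
Level of 14 genes (log2 of signal over the array's 75th percentile) on the 4 wild type (grey circles) and 4 knockout arrays (orange triangles), with group means as bars and the common floor as a dotted line. Cxcl9 has 3 knockout points because 1 spot was set to missing. The groups of Isg15, Usp18, Rsad2, Irf7 and Oas3 do not overlap, while those of Stat2 do.

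The promoters of some of these genes are shown because they hold the motifs that AP-1 and the interferon-activated factors bind. They are the 250 bases before the transcription start in the RefSeq promoter table of assembly GRCm38.p6, all on the minus strand. Capitals mark TGANTCA in Cxcl10 (chr5:92348890-92349139) and the core of the interferon-stimulated response element (GAAA, any 2 bases, GAAA) on either strand in Isg15 (chr4:156200819-156201068), Rsad2 (chr12:26456453-26456702) and Oas3 (chr5:120777660-120777909). This element and the last 3 promoters were chosen after values were seen.
Cxcl10: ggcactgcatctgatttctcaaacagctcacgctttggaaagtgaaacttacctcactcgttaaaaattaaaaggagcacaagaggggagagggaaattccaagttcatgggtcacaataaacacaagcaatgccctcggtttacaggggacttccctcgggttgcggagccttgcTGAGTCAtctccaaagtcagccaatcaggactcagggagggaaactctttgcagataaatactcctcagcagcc
Isg15: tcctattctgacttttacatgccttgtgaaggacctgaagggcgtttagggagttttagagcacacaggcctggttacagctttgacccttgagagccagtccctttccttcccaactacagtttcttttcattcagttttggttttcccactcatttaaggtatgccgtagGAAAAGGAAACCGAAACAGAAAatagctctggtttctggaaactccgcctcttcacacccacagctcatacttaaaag
Rsad2: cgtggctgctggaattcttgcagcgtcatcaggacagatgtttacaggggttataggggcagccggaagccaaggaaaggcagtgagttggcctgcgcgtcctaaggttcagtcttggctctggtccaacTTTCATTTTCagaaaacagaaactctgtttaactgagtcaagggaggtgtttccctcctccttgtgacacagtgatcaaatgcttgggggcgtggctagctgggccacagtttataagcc
Oas3: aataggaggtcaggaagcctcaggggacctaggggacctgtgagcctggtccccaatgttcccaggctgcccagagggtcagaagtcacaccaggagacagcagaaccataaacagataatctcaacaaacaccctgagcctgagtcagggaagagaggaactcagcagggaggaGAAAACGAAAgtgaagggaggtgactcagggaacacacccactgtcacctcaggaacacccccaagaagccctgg

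The Isg15 window holds 3 overlapping matches of the element as 1 run. In lower case, the Rsad2 window also holds TGANTCA once, the Oas3 window 2 times, and the Cxcl10 window the interferon element once. Over all genes tested with a promoter (10938), 6.34% held TGANTCA on either strand, against 5.92% of the genes called higher and 9.97% of those called lower. Among genes past 2-fold the shares were 9.51% of the higher and 13.7% of the lower. The interferon element was held by 3.46% of all, 2.72% of the genes called higher and 8.54% of those called lower. Among the interferon-stimulated genes called lower, 11 of 20 with a promoter held it (55%), close to the 51.9% of all members tested. TGANTCA was held by 0 of 12 of the largest rises measured in both groups that had a promoter, and by 1 of 10 of the largest falls. A match is a description of the sequence and not evidence of binding.

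Ifnb1, which encodes a type I interferon, was measurable above background in 4 wild type and 0 knockout wells, but at a dim level. It was lower by 0.60 ± 0.15 (adjusted p = 0.012), a size that depends on the floor. The call was lost with normexp correction (-0.55), with array quality weights (-0.42) and without both arrays that stood apart (-0.58). Its part in the levels of the interferon-stimulated genes was not tested. The Schlafen genes are induced by interferon and linked to growth arrest of immune cells. Of 11 genes of the PYHIN and Schlafen families, 5 were called lower and 0 higher, with a median of -0.62, and the 5 were all Schlafen genes. Slfn8 fell by 0.89 ± 0.11 (adjusted p = 7.1e-05). Slfn4 was at the floor on all knockout arrays and between -3.35 and -3.14 on the wild type arrays.

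Part of the antigen presentation genes were lower. Of 11 class II genes, 6 were called lower and 1 higher, with a median of -0.45. Cd74, the invariant chain that escorts class II molecules, stood at 3.75, 4.09, 3.34 and 4.20 in the knockout and at 5.33, 5.22, 5.10 and 5.69 in wild type. The groups did not overlap, and Cd74 fell by 1.49 ± 0.20 (adjusted p = 0.00018). The class II chains H2-Aa and H2-Eb1 fell by 0.80 ± 0.17 and 0.70 ± 0.15, and H2-DMa, which helps load peptides, by 0.74 ± 0.18. The dim modulator H2-Ob was the member called higher, at 0.63 ± 0.17, and it lost the call without any 1 of 4 arrays. Of 16 class I genes, 5 were lower and 0 higher, with a median of -0.38. The peptide transporter Tap1 fell by 0.93 ± 0.18 and its partner Tapbp by 0.79 ± 0.16. Beside these genes, the summed level of 11 dendritic cell markers was 102 to 179 in the knockout and 151 to 215 in wild type (in units of the 75th percentile). These ranges overlap, the dendritic genes Clec9a and Dpp4 were well above background on none of the arrays, and their part in the result was not tested.

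Chemokines, which draw leukocytes to a site, were lower in the knockout at rest. Of 23 tested, 13 were called lower and 0 higher, with a median of -0.70; quantile scaling and the deposited table each called 3 higher. Cxcl10, an interferon-inducible attractant of T cells, stood at 3.05, 3.16, 3.08 and 3.60 against 4.80, 5.82, 5.43 and 6.01. It fell by 2.29 ± 0.26 (adjusted p = 3.4e-05). Its relative Cxcl9 fell by 1.63 ± 0.20 on 3 knockout arrays. The monocyte attractants Ccl12 and Ccl2 fell by 1.69 ± 0.20 and 0.97 ± 0.18, and the neutrophil attractant Cxcl3 by 1.31 ± 0.25. Ccl2 lies outside the rule for named genes and was picked after its values were seen. Cx3cl1, a membrane-bound chemokine that is not on the list, went the other way, with levels of 0.45, 0.72, 0.73 and 0.39 against -2.45, -2.54, -2.36 and -1.90. It rose by 2.89 ± 0.14 (adjusted p = 9.8e-09). Among 12 chemokine receptors, 2 were higher and 1 lower (25% called, against 17.6% over all genes). Ccr3 rose by 1.48 ± 0.15 while Ccr9 fell by 1.00 ± 0.15.

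Cytokines split. Of 21 pro-inflammatory cytokine genes, 6 were lower and 1 higher, with a median of -0.20 that was 0.01 under normexp correction. Tnf had levels of 1.59, 2.29, 1.65 and 1.94 in the knockout and 3.28, 3.16, 2.95 and 3.27 in wild type. The groups did not overlap, and Tnf fell by 1.30 ± 0.16 (adjusted p = 6.5e-05). Tnfsf10, the death ligand TRAIL, fell by 1.72 ± 0.21 and Tnfsf9, a co-stimulatory ligand, by 1.02 ± 0.13. Csf1, the growth factor in which the cells were grown, fell by 1.01 ± 0.10 (other probes -0.91 and -0.50). Il1b was higher, at 0.68 ± 0.21 (adjusted p = 0.041), but lost its call without any 1 of 7 arrays. Of 13 anti-inflammatory mediators, 4 were lower and 1 higher. The higher one was Il10, the main deactivating cytokine of macrophages, with levels of -0.63, -0.50, -0.79 and -0.47 against -2.25, -2.09, -2.44 and -2.15. All knockout arrays were above all wild type arrays, and Il10 rose by 1.63 ± 0.13 (adjusted p = 1.1e-06). The interleukin 1 receptor antagonist Il1rn fell by 1.52 ± 0.20, the cytokine signalling inhibitors Socs1 and Socs3 by 1.15 ± 0.18 and 0.94 ± 0.18, and Cd274, which encodes PD-L1, by 0.55 ± 0.10.

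Markers of classical and of alternative activation did not each move as a block. The enzymes that compete for arginine were both lower. Arg1, the arginase of alternatively activated macrophages, stood at -1.54, -1.08, -1.52 and -1.59 in the knockout and at 1.37, 1.47, 1.54 and 1.43 in wild type. Arg1 fell by 2.88 ± 0.23 (adjusted p = 1.7e-06). Nos2, the nitric oxide synthase of classically activated macrophages, had levels of -2.48, -2.56, -2.80 and -2.85 against -0.49, 0.14, -0.10 and 0.39, and fell by 2.66 ± 0.18 (adjusted p = 3.0e-07). Of 23 classical effectors, 4 were lower and 1 higher (21.7% called, near the 17.6% over all genes). Saa3, an acute phase protein, fell by 1.67 ± 0.20 at a bright signal, and the co-stimulatory molecule Cd86 rose by 0.81 ± 0.15. Of 22 alternative activation markers, 7 were higher and 6 lower. The mannose receptor Mrc1 stood at 3.87, 3.73, 3.74 and 3.59 against 1.60, 2.09, 2.16 and 2.10, and rose by 1.75 ± 0.14 (adjusted p = 1.7e-06). The lectin Clec10a (0.97 ± 0.14), the transglutaminase Tgm2 (0.98 ± 0.10) and the VEGF receptor Flt1 (1.72 ± 0.30) rose. The transcription factor Egr2 fell by 1.23 ± 0.25 and fibronectin, Fn1, by 0.93 ± 0.13.

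**Figure D4:**
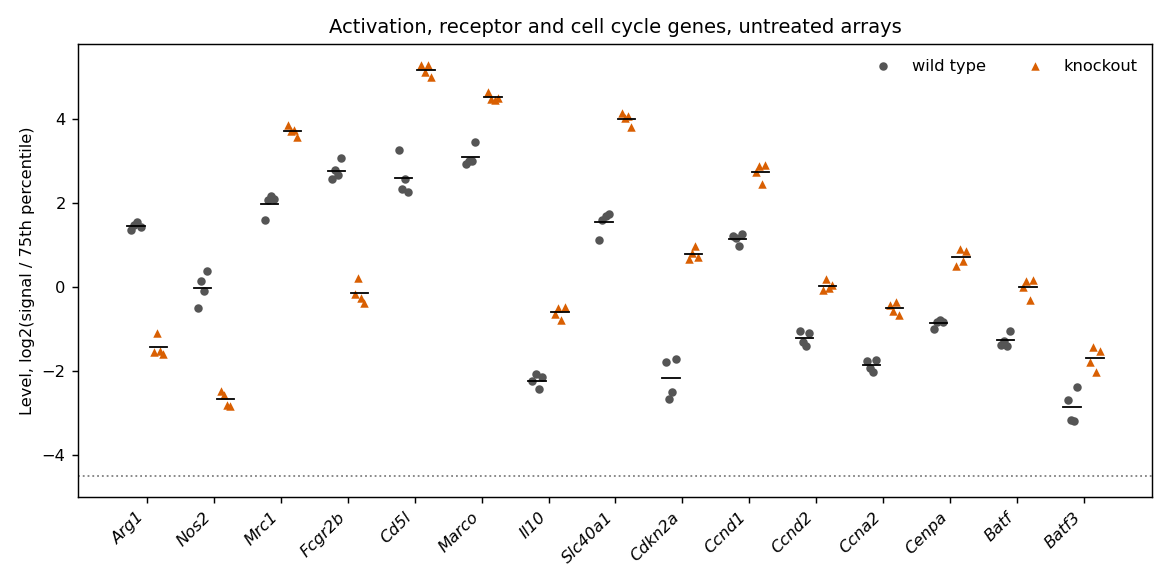
Level of 15 genes (log2 of signal over the array's 75th percentile) on the 4 wild type (grey circles) and 4 knockout arrays (orange triangles), with group means as bars and the common floor as a dotted line. Arg1, Nos2 and Fcgr2b are lower on every knockout array and the other 12 genes are higher on every knockout array.

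Receptors for uptake of particles and dying cells changed in both directions. Of 18 scavenger and efferocytosis genes, 7 were higher and 3 lower, with a median of 0.31, and 66.5% of the calls over all genes were higher. Cd5l, a secreted scavenger protein of tissue macrophages, stood at 5.31, 5.13, 5.30 and 5.02 against 3.27, 2.34, 2.58 and 2.26. It rose by 2.57 ± 0.19 (adjusted p = 8.4e-07). Havcr2, the phosphatidylserine receptor Tim-3, rose by 1.97 ± 0.15, the scavenger receptor Marco by 1.43 ± 0.14 and Mertk, a kinase that recognises apoptotic cells, by 1.21 ± 0.18. Colec12 fell by 2.09 ± 0.23, Timd4 by 1.03 ± 0.16 and Lrp1 by 0.82 ± 0.20. Lrp1 lost its call without both arrays that stood apart (-0.56). Maf, a transcription factor of resident macrophages, rose by 0.81 ± 0.16.

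The inhibitory Fc receptor was among the genes lowered most. Fcgr2b, which dampens signals from immune complexes, stood at -0.17, 0.21, -0.25 and -0.37 in the knockout and at 2.57, 2.80, 2.67 and 3.08 in wild type. It fell by 2.92 ± 0.14 (adjusted p = 8.9e-09), and its groups did not overlap. Among complement genes 4 of 16 were higher and 3 lower. Cd55, which speeds the decay of complement convertases on the cell surface, rose by 3.26 ± 0.22 (adjusted p = 2.7e-07), and its duplicate Cd55b by 3.92 ± 0.12, although another Cd55b probe gave 0.55 and near-identical copies may share signal. The complement factor Cfb fell by 1.28 ± 0.14 and the anaphylatoxin receptor C5ar1 rose by 0.58 ± 0.14. Slc40a1, the iron exporter ferroportin, had levels of 4.14, 4.04, 4.08 and 3.82 against 1.11, 1.60, 1.70 and 1.75. It rose by 2.48 ± 0.14 (adjusted p = 4.1e-08). The transferrin receptor Tfrc rose by 0.83 ± 0.14, and Slc7a11, the cystine importer, fell by 1.54 ± 0.16.

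Genes of the dividing cell were higher. Of 27 genes of DNA replication and mitosis, 18 were called higher and 0 lower, with a median of 0.63; the deposited table gave 11 higher and 1 lower of 22. Ccna2, the S phase and G2 cyclin, stood at -0.44, -0.57, -0.35 and -0.68 in the knockout and at -1.77, -1.94, -2.04 and -1.73 in wild type. It rose by 1.36 ± 0.11 (adjusted p = 1.2e-06). The centromere histone Cenpa rose by 1.59 ± 0.15 and Rrm2, a subunit of ribonucleotide reductase, by 1.39 ± 0.18. Of the 27 members 3 were negative, among them Mki67 at -1.58, which was not called and was not followed through the other settings. Without knockout replicate 3, 18 genes were higher and 1 was lower. Of 18 genes that act in G1, 4 were higher and 0 lower (22.2% called, against 17.6% over all genes). The 4 included both cyclins and their inhibitors. Ccnd1 rose by 1.60 ± 0.16 (adjusted p = 9.3e-06) and Ccnd2 by 1.25 ± 0.14 (adjusted p = 2.8e-05). Cdkn2a, which encodes the inhibitors p16 and p19, stood at 0.66, 0.81, 0.99 and 0.73 against -1.79, -2.68, -2.50 and -1.71. It rose by 2.97 ± 0.21 (adjusted p = 6.6e-07), but another probe gave 0.50. Its neighbour Cdkn2b rose by 1.06 ± 0.19 (another probe 0.31).

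Growth factors and matrix genes changed in both directions. Of 24 growth and differentiation factors, 6 were higher and 4 lower. Tgfb3, a transforming growth factor, stood at -0.68, -0.76, -0.50 and -0.68 against -4.09, -3.97, -3.96 and -3.42, close to the floor. It rose by 3.20 ± 0.15 (adjusted p = 5.0e-09). Gdf15, a stress-induced cytokine, rose by 1.91 ± 0.15, Pdgfc by 1.78 ± 0.17 and Bmp2 by 1.19 ± 0.16. Gdf3, which macrophages express under lipid-activated receptors, fell by 2.55 ± 0.12 (adjusted p = 8.3e-09, another probe -2.20). In the plasminogen system, the activator Plau rose by 0.96 ± 0.13, while the receptor Plaur fell by 1.16 ± 0.13. Of 28 adhesion molecules, 5 were higher and 6 lower. The vitronectin receptor chains Itgb3 and Itgav rose by 1.50 ± 0.14 and 0.99 ± 0.11, and Itgb7 and Itgax fell by 1.36 ± 0.13 and 0.77 ± 0.14. Ctsk, the collagen-degrading protease of osteoclasts, fell by 1.60 ± 0.14. Its list of 16 osteoclast and cell fusion genes was mixed, with 3 higher, Cd81 and Itgb3 among them, and 5 lower. The median of that list was -0.16. Its summed level, in the units of the dendritic cell sum, was 193 to 252 in the knockout and 153 to 178 in wild type. These ranges do not overlap. Cd81, higher by 4.23 log2 units and bright in the knockout, adds far more to the knockout sum than to the wild type sum. The sum without Cd81 was not computed, and the part of the other members was not tested. Id1, an inhibitor of helix-loop-helix factors that BMP signals induce, rose by 1.95 ± 0.20 (adjusted p = 1.6e-05) and the orphan receptor Nr4a1 by 1.26 ± 0.20.

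Lipid genes changed in both directions. Of 15 genes of prostaglandin and leukotriene synthesis 4 were higher and 1 lower, and of 23 purinergic, lipid and metabolite receptors 7 were higher and 2 lower. The desaturase Scd1 rose by 1.44 ± 0.12 and Alox5, the first enzyme of leukotriene synthesis, by 1.33 ± 0.12. The cholesterol synthesis enzymes Dhcr7 and Mvd fell by 1.09 ± 0.16 and 1.08 ± 0.17. Their list of 26 sterol genes had 2 higher and 4 lower (23.1% called, against 17.6% over all genes). S1pr1, a receptor for sphingosine-1-phosphate, rose by 1.42 ± 0.19. Glycolysis genes (3 of 20 higher and 4 lower), lysosomal hydrolase genes (1 of 23 higher and 2 lower) and stress response genes (1 of 18 higher and 1 lower) had no called member past 2-fold in either direction. Over all genes 17.6% were called and only 4.31% were called past 2-fold. At that share lists of this size would hold few such members.

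The largest rises were in genes of varied function. Tspan32, a tetraspanin of blood cells chosen after its values were seen, was higher by 6.19 ± 0.14 over 3 knockout arrays with a value (adjusted p = 7.9e-12), and by 2.79 as the mean over its probes. Only 2 wild type arrays measured it above background, and 3 wild type values lie at the floor, so the size and the SE depend on the floor. Trim12a, a member of a family of antiviral ubiquitin ligases, stood at 1.44, 1.49, 1.30 and 1.39 in the knockout and at -3.31, -4.52, -4.52 and -4.27 in wild type. It rose by 5.56 ± 0.21 (adjusted p = 6.2e-10, another probe 2.86), a size that depends on the floor, where 2 of the wild type values lie. Cd81, a tetraspanin that organises receptors in the membrane, stood at 6.23, 5.83, 5.89 and 6.02 against 1.31, 1.82, 2.06 and 1.86. Its rise of 4.23 ± 0.17 (adjusted p = 7.5e-10) left no overlap. Tceanc2 (4.09 ± 0.13, another probe 3.39), the membrane skeleton gene Epb41l3 (3.79 ± 0.16), the tubulin Tubb2b (3.62 ± 0.16, another probe 2.71) and the microglial receptor gene Fcrls (3.50 ± 0.18) rose. Nes, which encodes nestin (3.29 ± 0.16), Mdfi (3.26 ± 0.30) and Pdlim4 (3.01 ± 0.20) rose as well. The TNF receptor genes Tnfrsf26 and Tnfrsf23 were well above background on 4 knockout and 0 wild type arrays and were at least 176-fold and 102-fold higher (adjusted p = 2.4e-15 and 1.7e-15). In the same way the peptide transporter Slc15a2 was at least 20.1-fold, the erythropoietin receptor Epor at least 8.64-fold and Nrcam at least 7.28-fold higher.

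Cd81, Tspan32, Tnfrsf26, Tnfrsf23 and Ccnd1 lie near the distal end of chromosome 7 in the RefSeq gene order. Among the last 40 tested genes there, 13 were called higher and 4 lower, and 10 were at least 2-fold higher, against 28 of the other 1157 tested genes of the chromosome. The genes just named are themselves among the 10 and were named by their values, so this contrast is a description and not a test. Among 40 tested neighbours of Junb on chromosome 8, 5 were higher, 2 lower and 0 differed by 2-fold. That is 17.5% called, close to the 17.6% over all genes, of which 4.31% were called past 2-fold. Among 40 neighbours of Lyz2 on chromosome 10, 3 were higher and 6 lower (22.5%), and 2 differed by 2-fold, Lyz1 among them.

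The largest fall after Junb and Lyz2 was in Gdpd3, a lysophospholipase D. It stood at -0.01, 0.54, 0.09 and 0.40 in the knockout and at 5.32, 5.43, 5.35 and 5.55 in wild type, a fall of 5.16 ± 0.14 (adjusted p = 1.0e-11). The guidance receptor Neo1 fell by 2.83 ± 0.17, the actin-capping gene Tmod4 by 2.72 ± 0.16 and Tarm1, an activating receptor of myeloid cells, by 2.60 ± 0.19. The semaphorin Sema3c fell by 2.74 ± 0.15, but another probe gave 0.03. Prss46 (-2.40 ± 0.16), Ifit1bl1 (-2.35 ± 0.21), Cpne8 (-2.33 ± 0.21) and the aspartic protease Napsa (-2.25 ± 0.18) were also lower. Vmn2r82, Zfp462 and Igsf11 were well above background on 4 wild type and 0 knockout arrays and were at least 21.9-fold, 11.4-fold and 4.94-fold lower (another Zfp462 probe -0.36).

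Some markers of other myeloid cells differed beside the lower inflammatory genes, in both directions. Of 10 neutrophil markers tested, 4 were lower and 0 higher. S100a9, a subunit of the granulocyte protein calprotectin, stood at -2.33, -0.74, -2.28 and -0.41 in wild type and at the floor on all knockout arrays, at least 16.7-fold lower. The collagenase Mmp8 fell by 1.50 ± 0.17, the cathelicidin Camp by 0.98 ± 0.16 and S100a8 by 0.53 ± 0.15, although S100a8 lost its call without any 1 of 5 arrays. The summed level of the neutrophil list was 40.7 to 65.2 in the knockout and 71.2 to 116 in wild type. That of the monocyte and progenitor list was 12.6 to 15.1 against 32.4 to 36.3, with haptoglobin, Hp, lower by 1.62 ± 0.12 and Cd34 higher by 1.87 ± 0.18. The sum of the mast cell, basophil and eosinophil list went the other way, at 3.06 to 4.05 against 1.55 to 1.96. Its members were mixed, with 2 of 5 tested called higher and 0 lower but 3 negative and a median of -0.13. Of its 13 members with a probe, 5 were well above background on none of the arrays. None of these 3 pairs of ranges overlaps, and the part of these cells in the results was not tested. In bulk RNA, fewer cells of a type and less RNA per cell cannot be told apart.

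The same genotypes were compared with LPS, bacterial endotoxin, used at 100 ng/ml for 4 h in other wells on the same slides (7 arrays). There 4223 genes were called (30.8%), 13.5% of all higher and 17.3% lower, and a test of the difference between the genotype differences called 1384 (10.1%). Without knockout LPS replicate 3 these counts were 2769 and 902. Of the 590 genes called at rest with at least 2-fold (4.31%), 422 were called in the same direction with LPS, 14 in the opposite direction and 154 were not called.

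Large resting differences such as those of Cd81 (4.04 ± 0.18 with LPS), Gdpd3 (-6.08 ± 0.15) and Arg1 (-3.64 ± 0.25) were present in both states. The interferon-stimulated genes differed less with LPS. There 6 of 33 were lower and 0 higher, with a median of -0.24, and the difference between the states was called for 9, all towards a smaller or opposite genotype difference with LPS. Isg15 was at -0.25 and Cxcl10 at 0.06 with LPS, neither called, and the changes from the resting difference were 1.94 ± 0.26 (adjusted p = 0.00034) and 2.35 ± 0.38 (adjusted p = 0.0014). Nos2 went from -2.66 to -0.63.

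Other genes crossed over. Il10 was higher in the resting knockout and lower with LPS (-2.46), a change of -4.10 ± 0.18 (adjusted p = 3.9e-08). Zfp36l1, which promotes mRNA decay, was higher by 1.15 ± 0.14 at rest and at -2.94 with LPS. Ccnd2 and the matrix protein gene Thbs1 went from 1.25 and 1.08 at rest to -2.19 and -1.67, and Zranb3 from 1.47 to -1.14. In the opposite sense, Gfi1, a transcriptional repressor of myeloid cells, was lower by 1.61 ± 0.19 at rest and at 1.89 with LPS. Egr2 went from -1.23 to 1.65, Ppargc1b from -1.08 to 1.32, Gpx2 from -1.27 to 0.98 and Pdgfrb from -0.48 to 1.75. The resting call of Pdgfrb was lost without any 1 of 4 arrays, and that of Gpx2 without both arrays that stood apart (-1.26). Slc28a2b kept its direction, at -0.70 at rest and -3.78 with LPS.

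**Figure D5:**
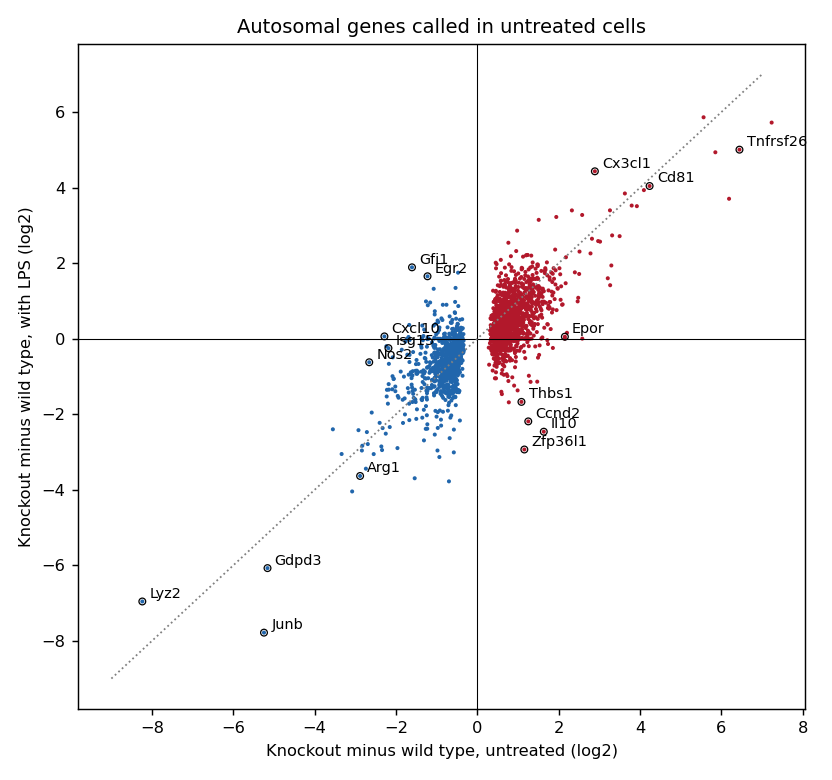
Autosomal genes called in untreated cells, with the knockout minus wild type difference (log2) in untreated cells on the horizontal and with LPS on the vertical axis. The dotted line marks equal differences. Red genes were called higher and blue lower at rest. Cd81, Gdpd3 and Lyz2 lie far from 0 in both states, while Il10, Zfp36l1, Ccnd2, Gfi1 and Egr2 lie in the quadrants of opposite sign.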

How the data were processed

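RNA of 15 macrophage wells was amplified, labelled with Cy3 and hybridised to 1-colour Agilent arrays, per the labels' protocols. The authors deposited, per the file headers, background-subtracted spot intensity from Agilent Feature Extraction 10.7.3.1. They also deposited a table of log2 values whose exact normalisation is not given in the sources used here. Each array's processed signal was divided by its 75th percentile, raised to a common floor of 0.0436 and taken as log2, so faint genes have compressed differences. A probe was kept where 3 or more arrays of a group measured it well above background (32507 of 55681), 4827 outlying spots were set to missing, and symbols came from RefSeq accessions (18338 kept probes). A gene with several probes took 1 probe, the one brightest on average, and other probes are given where they differ.

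limma 3.58.1 in R 4.3.3 fitted 4 group means to the 15 arrays, with Benjamini-Hochberg adjustment over 14192 genes, and was tested on simulated data. Genes were named as the 14 largest called differences per direction measured in both groups, the 8 highest bounds per direction, all AP-1 members, up to 4 called members per direction of each list, and the 6 largest changes with LPS per direction; unnamed gene models were counted only. Csf1r, Tspan32, Gbp2, Ifnb1, Stat2, Oas3, Ccl2 and Mki67 fall outside this rule and were chosen after their values were seen. Some genes that the rule names are not reported here. Members and lists were chosen with earlier results of these data known. Replicate numbers were not used as pairs, since same-numbered untreated arrays of the genotypes did not deviate alike. After each gene's group mean was subtracted, these arrays correlated at -0.393 to -0.079, although LPS arrays did at 0.135 to 0.446. Alternatives were other scalings, filters, floors and weights, the deposited table, and leaving out arrays. The number of arrays limits the precision.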

Additional observations from a re-analysis of the deposited data

Results flagged for a closer look

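For some genes a single array stood far from the other 3 of its group, by the gap to its nearest neighbour as a share of the group's whole range. Of 273 groups of 4 arrays tested, 26 passed Dixon's criterion, and chance gives about 1 in 20 groups. In the knockout group the share passed for Arg1 (0.866), Ccr9 (0.847), Cd55 (0.838), Csf1r (0.852), Epb41l3 (0.841), Gbp2 (0.934) and H2-Ob (0.842). It also passed for Ifit1bl1 (0.932), Jun (0.881), Ppargc1b (0.914), S1pr1 (0.853), Saa3 (0.899), Tmod4 (0.890) and Tubb2b (0.880). In the wild type group it passed for Bmp2 (0.977), Epb41l3 (0.913), Fos (0.843), Il1b (0.986), Maf (0.903), Marco (0.894), Mrc1 (0.870), Nes (0.845), Nrcam (0.915), Saa3 (0.949), Tap1 (0.861) and Tspan32 (1, with the other 3 at the floor).

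The genotype difference was not the same with LPS as at rest for 55 of the genes tested by name, by limma's test of the difference of differences with an adjusted p under 0.05. The values are the log2 difference with LPS minus that at rest. They were positive for Gfi1 (3.50), Egr2 (2.88), Ppargc1b (2.39), Cxcl10 (2.35), Gpx2 (2.25), Pdgfrb (2.22), Nos2 (2.03), Isg15 (1.94), Rsad2 (1.69) and Saa3 (1.63). Further positive values were those of Usp18 (1.59), Cx3cl1 (1.54), Tnfsf9 (1.41), Tnfsf10 (1.30), Lyz2 (1.28), Fn1 (1.23), Klf2 (1.08), Mvd (0.91), Cfb (0.90), Tnf (0.78) and Hp (0.57). The values were negative for Il10 (-4.10), Zfp36l1 (-4.09), Ccnd2 (-3.44), Slc28a2b (-3.08), Thbs1 (-2.76), Zranb3 (-2.61), Junb (-2.54), Tspan32 (-2.48), Epor (-2.10), Mdfi (-1.85) and Batf3 (-1.69). Next came S1pr1 (-1.63), Tgfb3 (-1.61), Ccnd1 (-1.56), Nr4a1 (-1.46), Tnfrsf26 (-1.44), Atf3 (-1.41), Slc40a1 (-1.40), Cd86 (-1.37) and Nes (-1.36). Smaller values were those of S100a8 (-1.23), Id1 (-1.19), Bmp2 (-1.17), Slfn4 (-1.12), Mertk (-1.09), Ccr3 (-0.96), Tnfrsf23 (-0.92), Gdpd3 (-0.91), Alox5 (-0.90) and Tgm2 (-0.86). The smallest were those of Ifnb1 (-0.79), Ccna2 (-0.78), Itgav (-0.59) and Slc15a2 (-0.58). Where resting values of a genotype lie at the floor, as for Junb, Tspan32 and Slfn4, the size of the value depends on the floor.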

How the results depend on the processing

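Of 134 named genes called at rest, 102 kept direction and call in every setting that held a value for them, and none of the others reversed. Not every setting held every gene. Of 144 named genes tested, called or not, 116 had a value in the deposited table. With only probes well above background on all 8 untreated arrays, 122 did. The count of 2415 called genes was 1146 in the deposited table (819 higher, 327 lower, of 12030 tested) and 4986 with array quality weights (3179 higher, 1807 lower). The genes called lower, 808, numbered 1259 under quantile scaling and 451 with normexp correction. Leaving out 1 untreated array gave 1666 to 2752 called genes, 1092 to 2035 higher and 574 to 907 lower, and the share higher went from 66.5% to 57.6% without wild type replicate 1 and 73.9% without wild type replicate 4. Leaving out 1 LPS array gave 2769 to 4266 genes called with LPS. The test of the difference between states gave 902 to 1873 over all arrays left out singly. Genes not called at rest whose sign turned were Csf1r, at 0.18 without knockout replicate 3 and 0.12 without both arrays that stood apart (chosen after seeing the data), Fosb and Fosl2. Fosb was at 0.14 with normexp correction, 0.19 with array weights, 0.06 without both arrays, 0.02 without knockout replicate 3 and 0.12 without wild type replicate 4. Fosl2 was at 0.032 with normexp correction and 0.054 in the deposited table. Leaving out each array in turn, Csf1r went from -2.34 to 0.18 and Fosb from -0.22 to 0.12. The cause was not tested.

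With the replicate number as a block 2118 genes were called at rest (1359 higher, 759 lower), 3857 with LPS and 1084 for the difference between states. The labels do not say what the numbers mark. By deviations from the group means, 0 untreated knockout arrays correlated best with the wild type array of their own number. The slide as a block could not be fitted, since each slide held 1 genotype. Genes near the floor have only a bound, and the number of arrays limits the rest.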
